A study of Mus musculus with 8 samples.

Results

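Gzmb-high cells were compared with Gzmb-negative cells within cultures of mouse splenic CD4 T cells. Gzmb encodes granzyme B, a serine protease of cytotoxic granules, found on the minus strand of chromosome 14 in mm10, from 56258838 to 56262260 (ENSMUSG00000015437). Members were chosen by their Gzmb count. Cells with at least 1500 UMIs (unique molecular identifiers, each standing for 1 captured mRNA) and outside the authors' clusters 7 and 9 were kept, those with 3 or more Gzmb UMIs were called Gzmb-high, and those with 0 were called Gzmb-negative. The rule left 90440 of the 104660 cells, of which 6253 were Gzmb-high (6.91%, or 5.97% of all cells) and 67599 were Gzmb-negative. The 12139 cells with 1 and the 4449 cells with 2 Gzmb UMIs were in neither set. Since Gzmb chose the cells, its own values are a description, and Gzmb was left out of every test.

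The cells came from the spleens of female mice aged 10 weeks, whose strain the labels give only as GPR65, and were sequenced with the 10x Genomics 3' kit after 3 days of culture. IL-1b (20 ng/ml) and IL-23 (20 ng/ml) were in the medium of all 8 cultures. IL-6 was added at 25 ng/ml to the Th17 and at 40 ng/ml to the Th22 cultures, and the latter also had 400 nM of FICZ, which binds and activates the aryl hydrocarbon receptor. Each polarization was run with wild-type (WT) and with Gpr65 knockout (KO) cells, 2 libraries in each of the 4 groups. Which part of Gpr65 was removed, and in which tissues, is not in the labels. Nor is the source of the 2 libraries of a group (separate mice, separate wells or 1 pool), so the spread behind each p-value is that of libraries and may be technical in part.

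Granzyme B is loaded into granules on the proteoglycan serglycin (Srgn), is activated by cathepsin C (Ctsc), and enters a target cell through pores made by perforin (Prf1). It is best known from CD8 T cells and natural killer (NK) cells, and CD4 T cells can also make it after activation. Signals through the IL-2 receptor and STAT5, together with T-box and RUNX transcription factors, are known to raise Gzmb transcription, and the serpin Serpinb9 inhibits granzyme B inside the cell that makes it. T helper 17 cells are instead defined by the cytokines IL-17A and IL-17F.

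The 250 bases before the start of Gzmb are shown beside those of 3 genes that the comparison turns on, namely Prf1, Hmgcs1 (an enzyme of sterol synthesis) and Il17a. They are from RefSeq on GRCm38.p6, each read 5' to 3' on the gene's strand, at chr14:56262335-56262584 (minus), chr10:61297586-61297835 (plus), chr13:119690101-119690350 (plus) and chr1:20730655-20730904 (plus). Capitals mark matches, on either strand, to the letters of an AP-1 motif (TGANTCA), a RUNX motif (TGTGGT) or a sterol regulatory element (TCACNCCAC).
Gzmb: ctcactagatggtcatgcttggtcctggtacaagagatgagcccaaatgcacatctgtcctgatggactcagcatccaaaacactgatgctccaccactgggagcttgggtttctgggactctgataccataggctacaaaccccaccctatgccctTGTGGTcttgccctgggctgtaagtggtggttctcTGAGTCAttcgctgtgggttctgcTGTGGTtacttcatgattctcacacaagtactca
Prf1: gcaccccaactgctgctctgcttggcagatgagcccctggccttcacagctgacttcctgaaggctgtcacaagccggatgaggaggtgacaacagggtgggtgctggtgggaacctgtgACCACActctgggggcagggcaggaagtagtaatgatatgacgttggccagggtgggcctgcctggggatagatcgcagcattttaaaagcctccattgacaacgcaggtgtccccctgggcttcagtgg
Hmgcs1: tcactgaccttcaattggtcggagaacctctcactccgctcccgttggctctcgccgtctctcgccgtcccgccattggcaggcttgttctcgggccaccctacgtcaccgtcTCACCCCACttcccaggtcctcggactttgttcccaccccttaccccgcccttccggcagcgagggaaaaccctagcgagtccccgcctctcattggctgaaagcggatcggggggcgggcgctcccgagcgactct
Il17a: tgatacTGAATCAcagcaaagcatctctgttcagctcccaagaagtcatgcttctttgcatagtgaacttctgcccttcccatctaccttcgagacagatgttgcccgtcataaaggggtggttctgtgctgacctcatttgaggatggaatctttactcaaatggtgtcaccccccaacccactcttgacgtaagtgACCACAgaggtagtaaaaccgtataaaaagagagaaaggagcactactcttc
The Gzmb window held 1 AP-1 match that begins 58 bases before the start and RUNX matches that begin 93 and 34 bases before it. In the Prf1 window the only match was a RUNX match at 130 bases. The Hmgcs1 window had 1 sterol regulatory element match at 137 bases, and the Il17a window an AP-1 match at 244 bases and a RUNX match at 52 bases. None of the marked matches overlap. Among 32851 RefSeq windows of the same length, 14.0% held the RUNX letters, 6.75% the AP-1 letters and 1.05% the sterol regulatory element letters. The RUNX letters were in the windows of 9 of 11 granzyme and pore genes and of 5 of 17 Th17 genes, and the sterol regulatory element letters were in 1 of 11 sterol genes with a window. These are matches of letters, with no measurement of binding.

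Gzmb transcripts were unevenly spread over the cultures. The Gzmb-high cells held 43.4% of all 75519 Gzmb UMIs, a further 27.9% lay in cells with 1 or 2 UMIs, and cluster 7, which was left out, held 25.6%. A Gzmb-high cell had a median of 4 Gzmb UMIs and at most 46, and Gzmb made up a median of 0.113% of its UMIs. Deeper cells reach 3 UMIs more easily: the median depth was 3043 UMIs in cells with 0 Gzmb UMIs, 3803 in cells with 3 and 4993 in cells with 10 or more. For that reason shares were also taken after each cell was thinned to 1500 UMIs, and all further comparisons match the 2 sides on depth within each library. All 6253 Gzmb-high cells found a match, and the summed counts without Gzmb were 28038209 UMIs on the Gzmb-high and 28055523 on the Gzmb-negative side, from 752233 Gzmb-high UMIs in WT Th17 replicate 1 to 10884732 in KO Th22 replicate 2. Across the matrix 2545 cells had a barcode that another library also had, 152 of them Gzmb-high. Free Gzmb transcript in the droplets could not be measured, since no cell type that lacks Gzmb was identified.

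In the unthinned counts, 1.93% and 3.34% of cells were Gzmb-high in the WT Th17 libraries, 2.36% and 6.17% in KO Th17, 6.06% and 8.11% in WT Th22, and 7.63% and 17.2% in KO Th22. After thinning the shares were 0.604% and 0.764% in WT Th17, 0.749% and 2.00% in KO Th17, 2.18% and 2.70% in WT Th22, and 2.23% and 5.87% in KO Th22. KO Th22 replicate 2 stood above every other library on both scales and gave 2322 of the Gzmb-high cells, while the groups otherwise overlapped between genotypes. The mean thinned share of the 4 KO libraries was 2.71 ± 2.20% (SD) and that of the 4 WT libraries 1.56 ± 1.04%, a difference of 1.15 percentage points (exact two-sided permutation test within polarization, p = 0.278). Without KO Th22 replicate 2 that difference was 0.0978 points. The KO mean then leans to the Th17 libraries, so polarization enters this value. Between polarizations the mean was 3.25 ± 1.76% in Th22 and 1.03 ± 0.650% in Th17 (SD, n = 4 each), and each Th22 library was above every Th17 library on this scale, though not on the unthinned one. The difference of 2.22 points had an exact permutation p = 0.0556, the smallest that 36 arrangements allow, and 0.111 after adjustment over the 2 comparisons. The separation was not kept at lower cuts on the thinned counts. At 2 or more and at 1 or more Gzmb UMIs, KO Th17 replicate 2 (6.04% and 20.8%) was above every Th22 library except KO Th22 replicate 2. The differences there were 3.72 and 6.51 points (exact permutation p = 0.111 and 0.278). IL-6 dose and FICZ differ together between Th22 and Th17 and cannot be told apart.

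**Figure D1:**
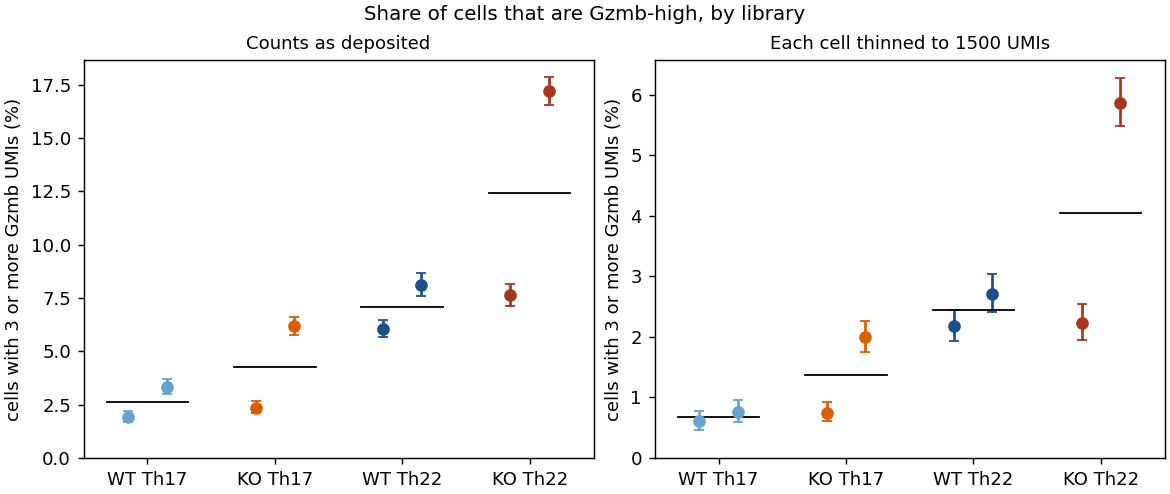
Percent of cells with 3 or more Gzmb UMIs in each library, as deposited (left) and with each cell thinned to 1500 UMIs (right). Each point is a library, its bar the exact 95% binomial interval (counting error only), and black lines are group means; KO Th22 replicate 2 is highest in both panels, at 17.2% and 5.87%.

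Gzmb-high cells were not spread evenly over the authors' clusters. The genes behind the clusters are not in the labels and may include Gzmb, so these shares are a description. Cluster 1 held a mean of 62.9% of the Gzmb-high cells of a library (range 58.3% to 76.8%) against 24.0% of the depth-matched Gzmb-negative cells (16.4% to 34.2%). Cluster 0 held 13.1% against 41.4% and cluster 2 held 3.53% against 12.9%, so both were less frequent on the Gzmb-high side. The small cluster 4 went the other way, with 6.79% against 2.58%. Each gene comparison was therefore repeated with the sides matched on both depth and cluster.

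Over the 8 libraries, 1492 genes were higher (16.9%) and 1488 were lower (16.8%) in Gzmb-high than in Gzmb-negative cells, of 8839 tested (edgeR quasi-likelihood test with the library as a block, adjusted p under 0.05). Of these, 342 (3.87%) were higher and 316 (3.58%) lower by at least 0.5 on the log2 scale, and the median over all genes tested was -0.005. The calls were thus common, and the size of a difference says more than the call. With the sides matched on cluster as well, 1445 genes passed, 739 higher and 706 lower, of which 1295 had also passed before. Among the 118 named genes that passed, the log2 fold change was more than 1.5 times smaller, or of the other sign, in 76, more than 1.5 times larger in 1, and the call ended in 14, so the size of most differences given below depends on whether cells are compared across or within clusters. Without the library block 890 passed. Levels below are CPM, the count per 1e+06 UMIs in the summed cells of a side, given as the lowest, median and highest of the 8 libraries, and log2 fold changes are Gzmb-high over Gzmb-negative with their standard error (SE). Where the sides of a gene are said not to overlap, this describes that gene. The share of all genes tested without overlap is not given.

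Perforin was the one granzyme or pore gene besides Gzmb with enough counts to be tested, and it was higher in Gzmb-high cells. Prf1, on chromosome 10 from 61297833 to 61304680 (ENSMUSG00000037202), was at 3.53, 5.92 and 13.9 CPM in Gzmb-high cells and at 0.262, 2.30 and 6.12 CPM in Gzmb-negative cells. The sides overlapped, and Prf1 was higher in 7 of 8 libraries, WT Th17 replicate 2 being the exception. Its log2 fold change was 1.35 (SE 0.25, edgeR adjusted p = 4.4e-05), and it was 1.07 with the sides matched on cluster (edgeR adjusted p = 1.5e-05). In the WT libraries alone it just missed the threshold (edgeR adjusted p = 0.0531). Even so, few cells carried it: a Prf1 UMI was found in 152 Gzmb-high and 61 matched Gzmb-negative cells. The filter on low counts asked for a minimum level in as many sums as 1 side has. Prf1, at 3.53 CPM or more in Gzmb-high and a median of 2.30 CPM in Gzmb-negative cells, could thus enter the test through the Gzmb-high side. It could be tested in 24 of at most 29 alternatives and passed in 23. Gzmc, a neighbouring granzyme, was too low to be tested, with 154 UMIs in Gzmb-high against 28 in Gzmb-negative cells, and it was higher in 8 of 8 libraries. Gzma had 57 UMIs against 26 and was higher in 3 of 8 libraries, so it did not share that pattern.

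The proteins that pack, activate and release granules did not move as a group. Of 17 such genes tested, 3 were higher and 4 lower, with a median log2 fold change of 0.01. The shares over all genes tested were 16.9% higher and 16.8% lower. Ctsw, a cathepsin of cytotoxic lymphocytes, was at 42.5, 73.5 and 111 CPM against 25.2, 44.1 and 82.6 CPM. It was higher in 8 of 8 libraries, although the ranges overlapped, with a log2 fold change of 0.63 ± 0.08 (SE; adjusted p = 1.2e-06 in edgeR). Ctsc, which activates granzymes, was at a log2 fold change of 0.28 ± 0.11 (SE; adjusted p = 0.046 in edgeR) and lost its call in 14 of 29 alternatives, cluster matching among them. Srgn, the carrier proteoglycan, was slightly lower (-0.18, SE 0.04), and Stx11, a syntaxin needed for granule fusion, was lower by more (-0.67, SE 0.14). Nkg7, a granule membrane protein, was at 13.4, 33.5 and 107 CPM against 5.35, 19.5 and 53.3 CPM and did not pass the test (0.46, SE 0.25, edgeR adjusted p = 0.22).

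Among the serpins, the inhibitor of granzyme B itself was the one that was higher. Serpinb9 was at 8.74, 10.6 and 13.9 CPM in Gzmb-high cells and at 2.99, 5.41 and 17.1 CPM in Gzmb-negative cells. Most Gzmb-negative sums lay below every Gzmb-high sum, but WT Th17 replicate 2 had the highest value of all on its Gzmb-negative side. The log2 fold change was 0.83 (SE 0.16, edgeR adjusted p = 6.2e-05), and the call was lost in the Th17 libraries alone and in the WT libraries alone. Serpinb6a was lower (-0.21, SE 0.06), and Serpinb6b (0.06, SE 0.08, edgeR adjusted p = 0.64) and Serpinb1a (-0.06) did not pass.

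Transcripts of other cytotoxic lineages were present at low levels on both sides, and most of those shown were more frequent on the Gzmb-high side, though not all in every library. Cd8a had 79 UMIs in Gzmb-high against 8 in Gzmb-negative cells, in 46 against 6 cells, and was higher in 8 of 8 libraries. Cd8b1, the other CD8 gene, was found in 252 against 234 cells, its share of cells being higher in 5 of 8 libraries. Trdc, the gamma-delta receptor constant gene, had 64 UMIs against 36 and was higher in 6 of 8 libraries. The summed level of the CD8 list (2 genes) ranged from 9.65 to 22.6 CPM in Gzmb-high and from 6.43 to 12.9 CPM in Gzmb-negative sums, that of the gamma-delta list (6 genes) from 1.56 to 11.2 against 0.595 to 3.51 CPM, and that of the NK list (6 genes) from 0.919 to 10.6 against 0 to 3.99 CPM. Cluster 7, with a median of 621 CPM for the gamma-delta and 99.2 CPM for the NK list, lay far above both sides. Of 15 CD8, gamma-delta and NK markers, at least 1 UMI was found in a median of 9.75% of Gzmb-high, 7.07% of Gzmb-negative and 93.8% of cluster 7 cells, the last at a median depth of 3498 UMIs per cell. The Gzmb-high share was above the Gzmb-negative one in 6 of 8 libraries, with overlapping ranges (4.64% to 12.7% against 5.27% to 9.97%). Leaving out the cells with such a UMI kept 5743 Gzmb-high cells, and 2723 genes passed (1298 higher, 1425 lower). In that comparison Ctsw (0.44) and Serpinb9 (0.65) were still higher, whereas Prf1 fell below the filter on low counts. The part of cells with these markers in the Prf1 difference was not tested.

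The label of CD4 T cells held on both sides. Cd4 was at 78.9, 100 and 127 CPM in Gzmb-high cells against 72.9, 114 and 134 CPM in Gzmb-negative cells, and a Cd4 UMI was found in 2034 against 2170 cells. Its difference of -0.14 on the log2 scale (SE 0.05, edgeR adjusted p = 0.040) lost its call in 18 of 29 alternatives. Of 16 T cell receptor and identity genes, 9 were higher and 2 lower with a median of 0.10, led by Lat, the adaptor below the T cell receptor, at 0.48. Of the B cell and myeloid lists, Ms4a1 and Csf1r had no UMI on either side, while Ighm had 1035 UMIs in Gzmb-high against 908 in Gzmb-negative cells, Cd68 751 against 749 and Cst3 3324 against 3388. The summed B cell list (8 genes) ranged from 27.0 to 47.5 CPM in Gzmb-high and from 21.5 to 49.3 CPM in Gzmb-negative sums, and the myeloid list (5 genes) from 133 to 169 and from 132 to 171 CPM. Klrd1, a receptor of NK and CD8 T cells, was at a log2 fold change of 0.50 ± 0.19 (SE; adjusted p = 0.046 in edgeR) and lost its call in 15 of 26 alternatives.

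Enzymes that make sterols and fatty acids were among the largest differences. Of 18 sterol synthesis genes, 16 were higher, none lower, and Mvk (0.15) and Srebf2 (0.14) did not pass. The median log2 fold change was 0.52, against -0.005 over all genes. Cyp51, the lanosterol demethylase, was at 99.7, 119 and 147 CPM in Gzmb-high and at 47.7, 58.3 and 88.9 CPM in Gzmb-negative cells. The sides did not overlap, and the log2 fold change was 0.93 (SE 0.06, edgeR adjusted p = 1.3e-15). Hmgcs1, whose window above holds the sterol regulatory element letters, lies on chromosome 13 from 119690379 to 119708260 and was at 48.5, 77.7 and 97.6 CPM against 27.5, 39.6 and 52.6 CPM. It was higher in 8 of 8 libraries, by 0.91 (SE 0.07).

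Squalene epoxidase Sqle (0.84) and the isomerase Idi1 (0.85) followed. Fasn, the fatty acid synthase, did not overlap between the sides, at 28.4, 39.5 and 49.1 CPM against 10.5, 21.1 and 27.6 CPM (log2 fold change 0.97, SE 0.09, edgeR adjusted p = 1.1e-12). Matching on cluster kept 13 of the 18 sterol genes as higher and took the list's median from 0.52 to 0.33, Cyp51 from 0.93 to 0.49, Hmgcs1 from 0.91 to 0.52 and Fasn from 0.97 to 0.52, each of these genes still past the test.

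Genes of ribosome assembly were higher, while the ribosomal proteins themselves were lower by a small amount. Of 20 MYC and ribosome biogenesis genes, 18 were higher and 1, Npm1 (-0.15), was lower, with a median of 0.50. Dkc1, the pseudouridine synthase dyskerin, was at 55.2, 65.3 and 89.9 CPM against 28.3, 38.2 and 64.8 CPM (0.70, SE 0.08). Myc, the transcription factor of growth, was at 32.6, 38.7 and 44.9 CPM against 16.2, 28.3 and 37.6 CPM and was higher in 8 of 8 libraries (0.50, SE 0.08, edgeR adjusted p = 2.8e-06). Nolc1 (0.78), Nop56 (0.74) and the polymerase I subunit Polr1b (0.73) differed by more. Of 28 cytosolic ribosomal proteins, 26 were lower and none higher, with a median of -0.12, for example Rps2 at -0.24 (SE 0.02) and Rplp0 at -0.20. On the sides matched on cluster the biogenesis median was 0.22, with 15 higher, and the ribosomal protein median was -0.06, with 19 lower and 1 higher.

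Activation markers and genes downstream of the IL-2 receptor moved upward for the most part. Of 12 activation markers 10 were higher and none lower, with a median of 0.31. Il2ra, the high-affinity IL-2 receptor chain CD25, was at 153, 197 and 224 CPM against 99.8, 141 and 201 CPM. It was higher in 8 of 8 libraries with overlapping ranges (0.38, SE 0.05, edgeR adjusted p = 3.4e-08). Tnfrsf9 (4-1BB) differed by 0.65, the transferrin receptor Tfrc by 0.67 and Tnfrsf4 (OX40) by 0.41. Matched on cluster, these differences were 0.22 for Il2ra, 0.30 for Tnfrsf9, 0.37 for Tfrc and 0.16 for Tnfrsf4, all past the test.

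Of 16 IL-2 receptor and STAT5 target genes, 12 were higher and 3 lower, with a median of 0.32. The feedback inhibitors Socs2 (0.88) and Socs1 (0.66), the shared receptor chain Il2rb (0.59), the survival factor Bcl2 (0.52) and the cytokine Osm (0.74) were higher. Socs1 was at 72.8, 137 and 159 CPM against 45.9, 83.6 and 99.1 CPM. The transcripts of the STAT5 proteins themselves were lower, Stat5a by -0.60 and Stat5b by -0.69, as was the kinase Pim2 (-0.27). Matched on cluster, 12 of the 16 were still higher and 2 lower.

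Immediate early genes, which answer T cell receptor signals within minutes, were split. Of 15, 6 were higher, among them Fos (0.73), Dusp2 (0.56) and Egr1 (0.41), and 4 were lower, among them the brakes on NF-kB signalling Tnfaip3 (-0.76) and Nfkbia (-0.23). Among all genes tested, 16.9% were higher and 16.8% lower. All co-inhibitory receptors tested had a negative log2 fold change, and 4 of the 6 passed as lower: Ctla4 (-0.42), Cd200 (-0.41), Lag3 (-0.40) and Btla (-0.22). The Ctla4 call was lost in 7 of 29 alternatives, with the sides matched on phase (edgeR adjusted p = 0.0502) and with another draw of matched cells among them, and its adjusted p reached 0.304. In the survival and death genes, Bcl2 was higher, while the death receptor Fas (-0.56) and the pro-death Bcl2l11 (-0.79) were lower. Bcl2l11 was at 6.07, 24.1 and 39.4 CPM against 26.6, 48.0 and 61.8 CPM, and its call ended when matched on cluster (-0.18, edgeR adjusted p = 0.155).

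Transcription factors tied to cytotoxic effector fate went both ways, 3 higher and 4 lower of 11 tested. Of all genes tested, 16.9% were higher and 16.8% lower. Irf8 was at 23.7, 43.4 and 68.3 CPM against 9.95, 24.6 and 41.4 CPM, and Id2, an inhibitor of helix-loop-helix factors, at 103, 116 and 168 CPM against 57.5, 79.2 and 112 CPM. Both were higher in 8 of 8 libraries, Irf8 by 0.78 (SE 0.08) and Id2 by 0.60 (SE 0.05), and so was Hopx (0.69). Batf (-0.52), Irf4 (-0.48), Bhlhe40 (-0.57) and Stat4 (-0.34) were lower. Matched on cluster, Irf8 was at 0.51 and Id2 at 0.44, and Stat4 no longer passed (-0.09, edgeR adjusted p = 0.522). Runx3, a known activator of Gzmb, was at 76.3, 96.8 and 145 CPM against 63.9, 107 and 129 CPM and did not pass (0.09, SE 0.06, edgeR adjusted p = 0.23). The T-box genes were too low to test: Tbx21 had 93 UMIs against 74 and Eomes 5 against 1. Ifng had 58 UMIs against 6, but at most 14.0 CPM in any library and a median of 0.0459 CPM.

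**Figure D2:**
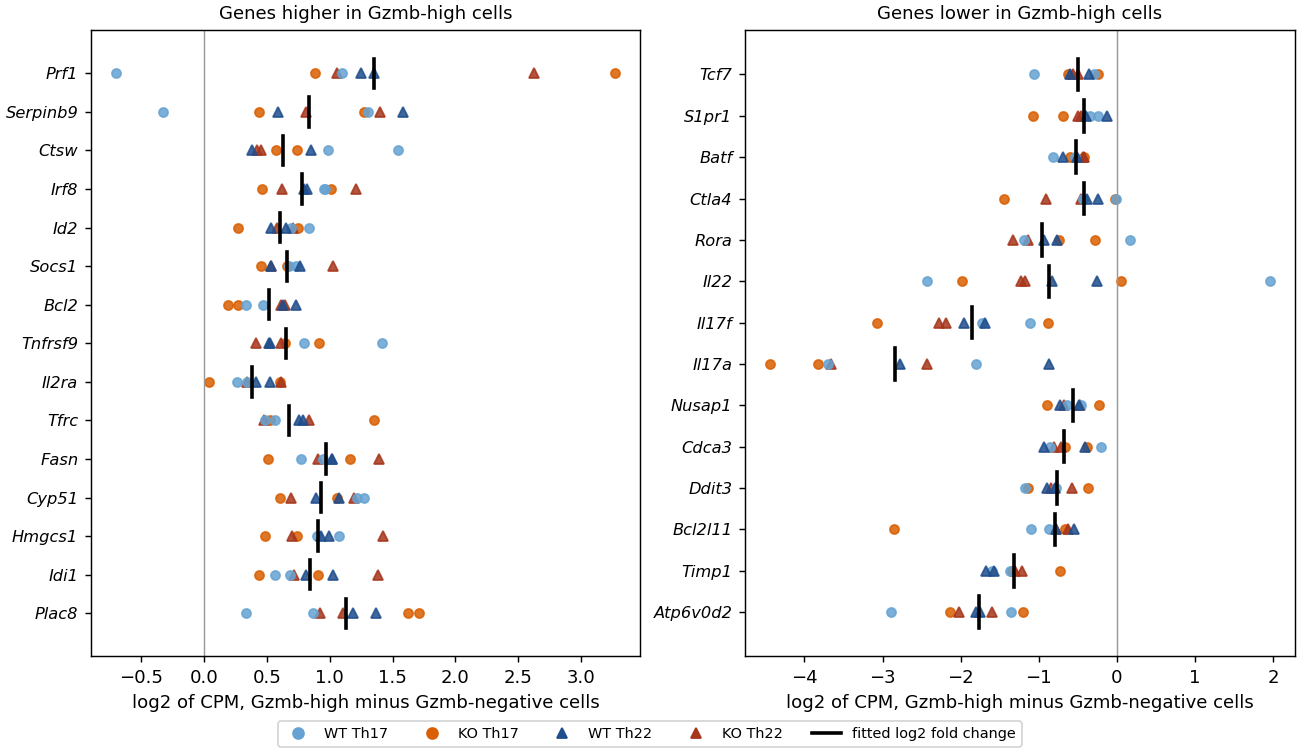
Log2 difference of CPM between Gzmb-high and Gzmb-negative cells in each library (points) and the fitted log2 fold change (black bar) for genes that were higher (left) and genes that were lower (right). Circles are Th17 and triangles Th22 libraries; Prf1 is below 0 only in WT Th17 replicate 2, and Il17a is below 0 in all 8 libraries.

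The Th17 cytokines showed the opposite pattern. Il17a, on chromosome 1 from 20730905 to 20734496 (ENSMUSG00000025929), was at 0.742, 2.61 and 10.1 CPM in Gzmb-high cells and at 8.09, 28.1 and 60.6 CPM in Gzmb-negative cells. It was lower in 8 of 8 libraries, by -2.84 (SE 0.39, edgeR adjusted p = 0.00076), although the ranges over all libraries overlapped. Every Gzmb-negative sum was at 8.09 CPM or more, while the Gzmb-high median was 2.61 CPM. Il17a could thus pass the filter on low counts through the Gzmb-negative side. A UMI of Il17a was found in 44 Gzmb-high and 110 matched Gzmb-negative cells, so the signal rests on few cells of high output. Il17f was at 0.742, 9.79 and 19.4 CPM against 5.50, 32.9 and 43.1 CPM and was lower in 8 of 8 libraries (-1.86, SE 0.14, edgeR adjusted p = 1.0e-12). With the sides matched on cluster the differences were -0.94 for Il17a and -0.90 for Il17f, both past the test.

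Of 14 Th17 genes tested, 8 were lower and 3 higher, with a median of -0.50, which was -0.14 with the sides matched on cluster. Rora, an orphan nuclear receptor, was at 12.6, 14.4 and 20.5 CPM against 15.7, 26.4 and 36.4 CPM and was lower by -0.96 (SE 0.11). It was nearly the same when matched on cluster, at -0.82, and its call was lost in the Th17 libraries alone (edgeR adjusted p = 0.0507). The cytokine Il24 (-1.08) was also lower. Il22 was at 0, 10.9 and 30.1 CPM against 2.45, 22.3 and 54.8 CPM (-0.87, SE 0.23, edgeR adjusted p = 0.020), and that call ended with the sides matched on cluster, where the value was 0.10 (edgeR adjusted p = 0.86). Maf (0.19), the channel Tmem176a (1.13) and the leukotriene receptor Ltb4r1 (0.68) were the members that were higher.

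Genes of naive and memory cells were lower more often than higher, 9 against 2 of 20. Tcf7, the factor TCF-1 of naive and memory cells, was at 52.9, 77.6 and 116 CPM against 77.9, 121 and 177 CPM and was lower in 8 of 8 libraries (-0.50, SE 0.06, edgeR adjusted p = 8.1e-10). The egress receptor S1pr1 was lower by -0.43 (SE 0.09), but with the sides matched on cluster its value was 0.22 (edgeR adjusted p = 0.117), and the list then had 2 lower and 1 higher. Tcf7 (-0.26) was still past the test there.

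Among genes that averaged at least 20 CPM, several of the largest falls were in genes outside these lists. Atp6v0d2, a proton pump subunit on chromosome 4 from 19876841 to 19922605, was at 9.49, 14.1 and 40.0 CPM in Gzmb-high and at 22.6, 75.6 and 116 CPM in Gzmb-negative cells. It was lower in 8 of 8 libraries by -1.77 (SE 0.08, edgeR adjusted p = 4.9e-22), and by -1.01 with the sides matched on cluster. Timp1, an inhibitor of metalloproteinases, did not overlap between the sides, at 42.6, 74.2 and 89.3 CPM against 131, 166 and 221 CPM (-1.32, SE 0.07, and -0.73 matched on cluster). Cir1 (-1.12), Crebrf (-1.02), Mxd4 (-0.81), an antagonist of MYC, and the glucocorticoid-induced Tsc22d3 (-0.81) were further falls. Matched on cluster they were at -0.65, -0.57, -0.44 and -0.36. The polyamine oxidase Smox (-0.86) and the mTORC2 subunit Rictor (-0.80) were lower as well.

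Among the rises, Plac8 was at 9.49, 25.3 and 73.9 CPM against 2.68, 12.3 and 32.1 CPM (1.13, SE 0.09, edgeR adjusted p = 3.2e-14) and was as large when matched on cluster (1.19). Tgm2, a transglutaminase, differed by 1.02, Igfbp4 by 0.94, the oxygen sensor Egln3 by 0.90 and Gap43 by 0.84. For Tgm2, Egln3 and Gap43 the values matched on cluster were 0.58, 0.46 and 0.48. The stefins Cstdc4 (1.39) and Csta2 (1.31), the 2 largest rises among genes that averaged at least 20 CPM, belong to a family of near-identical copies whose reads can be split between them, and both lost their call when the sides were matched on cluster (0.35 and 0.21).

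Metabolic and stress lists differed in smaller steps. In glycolysis 12 of 19 genes were higher and none lower (median 0.22), with the lactate exporters Slc16a1 (0.58) and Slc16a3 (0.48) and the glucose transporter Slc2a1 (0.45) in front. Matched on cluster, 6 were higher and the median was 0.05. Endoplasmic reticulum chaperones had 8 of 16 higher and none lower, led by Sdf2l1 (0.75) and with Hspa5, the chaperone BiP, at 0.36. In the ATF4 response, 6 of 19 were higher, such as Phgdh (0.31), while Ddit3 (-0.77), Nupr1 (-0.67) and Atf4 itself (-0.36) were lower. Hypoxia genes were more often higher than lower, 7 against 3 of 14. So were the nuclear-encoded respiratory chain genes, 12 against 3 of 28, with a median of 0.06. Over all genes tested, 16.9% were higher and 16.8% lower. The summed level of each of these 2 lists was higher in 8 of 8 libraries. Of the mitochondrial genome's transcripts, mt-Co3 was higher by 0.24 and mt-Co2 by 0.14, and the median mitochondrial share of a cell was 2.15% to 2.46% in Gzmb-high against 1.84% to 2.34% in Gzmb-negative cells. Its part in the differences above was not tested.

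Of 22 interferon-stimulated genes, 9 were higher, among them Isg20 (1.30), Xaf1 (1.06) and Isg15 (0.70), and 2 guanylate-binding proteins, Gbp2 (-0.53) and Gbp5 (-0.80), were lower. With Osm, the cytokines Lta (0.58), Tnf (0.55), Tgfb1 (0.46) and Ltb (0.27) were higher, so that 5 of 9 cytokine genes passed as higher and none as lower. Ccl4, a chemokine of activated T cells, was at 4.26, 20.9 and 162 CPM against 6.99, 14.1 and 48.7 CPM, and its difference of 0.97 (SE 0.31, edgeR adjusted p = 0.048) lost its call in 16 of 29 alternatives (0.17 matched on cluster). Ccl3 (0.82, edgeR adjusted p = 0.21) and Ccl5 (-0.35, edgeR adjusted p = 0.36) did not pass. The chemokine receptor Ccr4 (0.77) was higher. Of 5 genes of the aryl hydrocarbon receptor list, the receptor Ahr (-0.45) and its target Cyp1a1 (-0.68) were lower, and neither passed when matched on cluster (-0.10 and -0.28). By library the Ahr difference ran from -1.73 to 0.26. Its call was lost in 13 of 28 alternatives, DESeq2 and another draw of matched cells among them. Cyp1a1 had a difference of 0 in every Th17 library and of 0.07 in WT Th22 replicate 1, so its fall came from the remaining Th22 libraries. The proton sensors gave -0.01 for Gpr65 (edgeR adjusted p = 0.97) and -0.28 for Gpr132, the latter past the test, though it was at -0.04 and did not pass when matched on cluster.

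**Figure D3:**
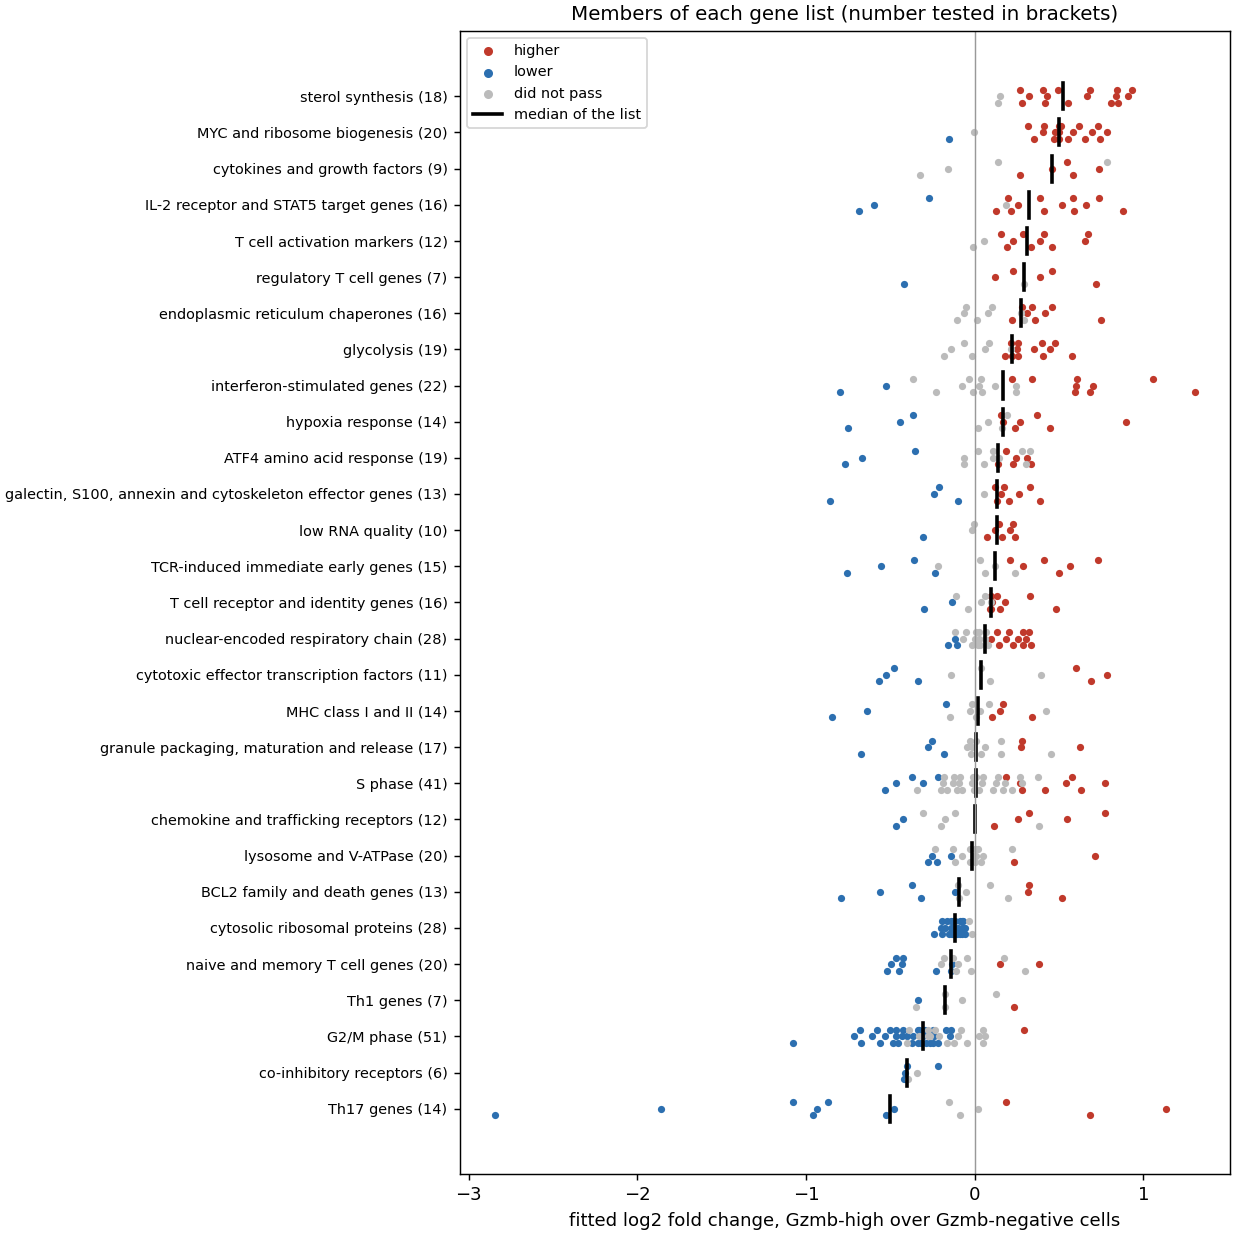
Fitted log2 fold change of every tested member of the gene lists with at least 6 tested members, ordered by the list's median (black bar). Red points were higher, blue points lower and grey points did not pass the edgeR test; sterol synthesis has the highest median, 0.52, and Th17 genes the lowest, -0.50.

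The shares of cells in the phases of the cell cycle differed by a few points between the sides, and G1 was the commonest phase on both, at a mean of 52.6% in Gzmb-high and 51.7% in Gzmb-negative cells. The share of cells called in G2/M phase was 16.9% in Gzmb-high and 23.2% in matched Gzmb-negative cells on average, a difference of -6.27 ± 2.26 points (SD, n = 8), lower in 8 of 8 libraries (exact sign-flip test over libraries, two-sided p = 0.00781, the smallest that flipping 8 signs allows). The share in S phase was 30.5% against 25.2%, higher in 8 of 8 libraries by 5.32 ± 3.13 points (exact sign-flip p = 0.00781, also after adjustment over the 2 phases). With phases from the authors' scores the differences were -2.59 points in G2/M and 4.13 points in S, the latter higher in 6 of 8 libraries (exact sign-flip p = 0.0313). In cells thinned to 1500 UMIs the S share was higher in 7 of 8 libraries, by 4.57 points (exact sign-flip p = 0.0313), and without matching on depth the G2/M difference was -2.45 points (exact sign-flip p = 0.0234). Of 51 G2/M genes, 33 were lower and 1 higher, with a median of -0.31. Nusap1 (-0.56), Cdca3 (-0.68) and the centromere protein Cenpa (-0.47) were each lower in 8 of 8 libraries. With the sides matched on phase, 9 were lower, 2 higher and the median was -0.05. The phases were called from these same lists, so the counts of their members are no separate evidence on phase. Among 41 S phase genes, 8 were higher and 5 lower, near the shares over all genes tested (16.9% higher and 16.8% lower). Cdca7 (0.77), which did not overlap, and the replicative helicase subunit Mcm2 (0.63) were the largest rises. After matching on phase, 2716 genes in all passed, and Cyp51 (0.88), Prf1 (0.99) and Il17a (-2.72) were among them.

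Levels over the whole range of Gzmb counts put cells at the threshold in context. These are descriptions, unmatched on depth, as means ± SD of 8 libraries. Cyp51 was at 61.8 ± 13.5 CPM in cells with 0 Gzmb UMIs, 74.7 ± 14.3 with 1, 93.2 ± 13.1 with 2 and 113 ± 18.7 with 3, and it reached 179 ± 30.8 CPM with 10 or more. Il17a went from 21.9 ± 15.0 CPM with 0 to 15.8 ± 12.7 with 1, 6.81 ± 4.99 with 2 and 3.60 ± 5.04 with 3. Cells just outside the threshold, with 2 UMIs, thus lay between the 2 sides for both genes. Atp6v0d2 was at 73.2 ± 35.8 CPM with 0, 38.1 ± 17.4 with 2 and 21.9 ± 16.9 with 3, and Tcf7 at 135 ± 31.8, 102 ± 23.8 and 92.8 ± 27.9 CPM. Prf1 was different, at 2.77 ± 0.862 CPM with 0, 3.55 ± 1.26 with 2, 4.65 ± 3.15 with 3 and 25.5 ± 38.5 with 10 or more, where the SD exceeds the mean.

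**Figure D4:**
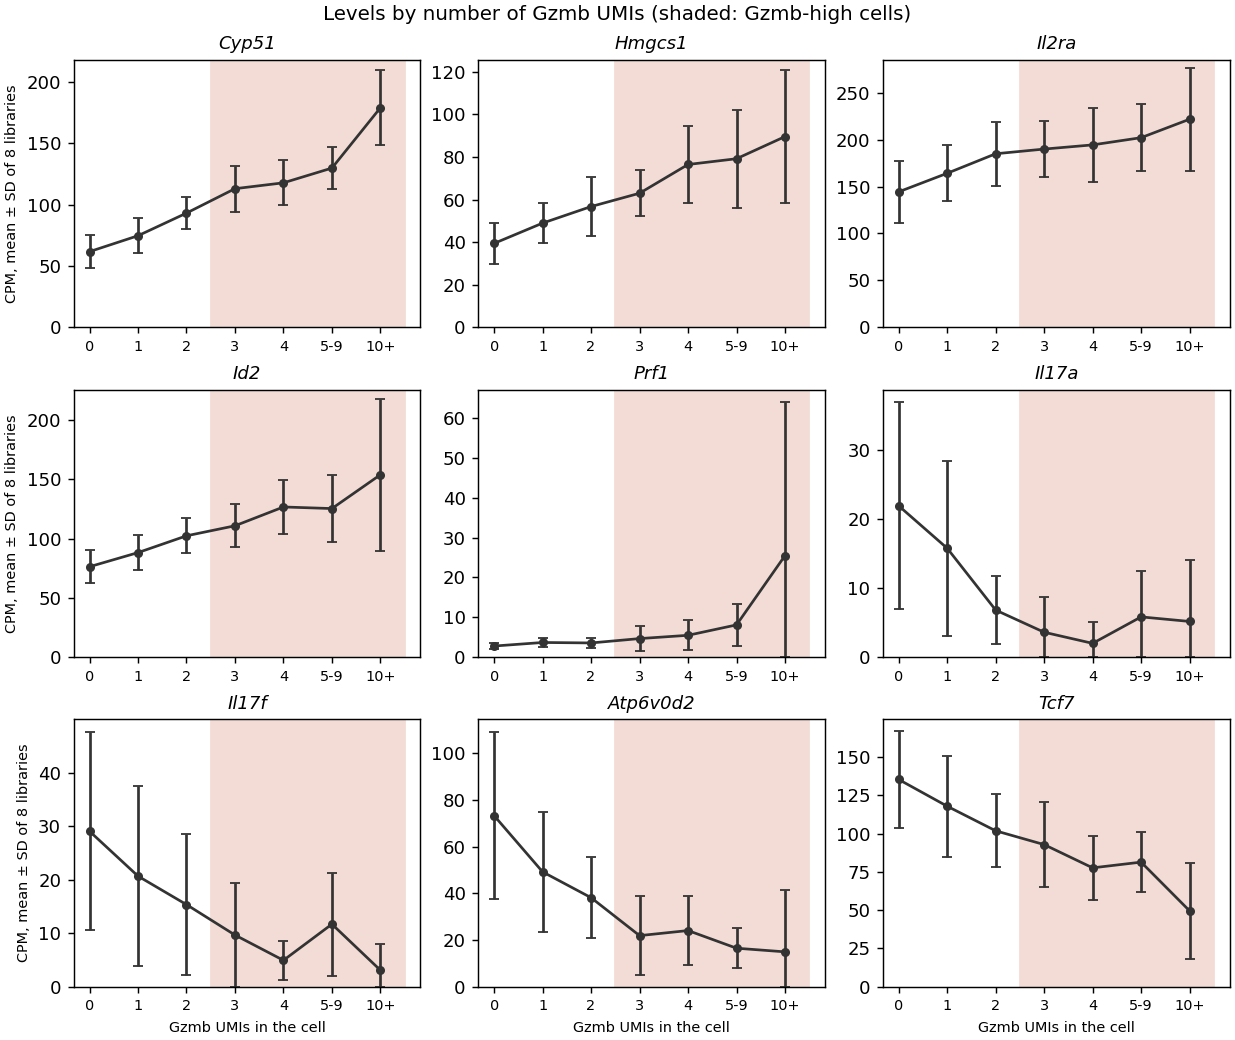
Mean CPM ± SD of 8 libraries for 9 genes in cells with 0, 1, 2, 3, 4, 5 to 9, and 10 or more Gzmb UMIs, with error bars stopped at 0 and Gzmb-high classes shaded. Cyp51 goes from 61.8 to 179 CPM and Tcf7 from 135 to 49.5 CPM between the first and the last class.

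The difference between the sides was then compared between genotypes and between polarizations. For KO against WT, no gene passed (0.0% of 8839), with 302 genes at an unadjusted p under 0.05 in edgeR and none past the adjusted threshold in DESeq2. For Th22 against Th17, 2 genes passed (0.0226%). Ifitm1, an interferon-induced membrane protein, was at 8.67 and 23.1 CPM in the Gzmb-high and 5.40 and 4.22 CPM in the Gzmb-negative sums of KO Th17, and at 69.0 and 51.7 against 170 and 156 CPM in KO Th22. In WT Th17 it was at 71.6 and 70.7 against 135 and 103 CPM, and in WT Th22 at 310 and 329 against 699 and 578 CPM. KO Th17 was thus the group in which Gzmb-high cells had more Ifitm1, with a log2 fold change of 2.01 against -1.46 in KO Th22, -0.69 in WT Th17 and -0.99 in WT Th22. The difference of the effects was -1.89 (SE 0.21, edgeR adjusted p = 1.2e-05), and without KO Th17 replicate 2 it was -1.23 and did not pass (edgeR adjusted p = 0.405). Ms4a4b differed by -0.63 (SE 0.10, edgeR adjusted p = 0.0016), with effects of 0.68 and 0.57 in KO and WT Th17 and 0.04 and -0.06 in Th22. It did not pass without WT Th17 replicate 1, WT Th17 replicate 2 or WT Th22 replicate 2 (edgeR adjusted p = 0.0522, 0.0557 and 0.15), nor with another draw of matched cells (0.138).

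Within Gzmb-high cells, 88 genes (0.925%) were higher and 99 (1.04%) lower in KO than in WT, of 9509 tested (edgeR, polarization in the model). Without WT Th22 replicate 2 the total of 187 dropped to 71. Gpr65 checked the labels: it was at 0.875, 1.15, 1.0 and 1.23 CPM in the KO libraries and at 51.4 to 66.5 CPM in the WT libraries, a log2 fold change of -5.65 (SE 0.21). Of 17 granule packaging and release genes 1, Nkg7, was higher and none lower, and of 12 cytotoxic effector transcription factors 1 was higher (Tbx21) and 1 lower (Runx3). Prf1 was at 14.0, 7.66, 4.77 and 6.67 CPM in the KO and 6.34, 3.59, 5.64 and 5.58 CPM in the WT libraries (0.41, SE 0.28, edgeR adjusted p = 0.547), and Serpinb9 (-0.00, SE 0.24) and Gzmc (0.33, SE 0.35) did not pass either. Nkg7 was at 108, 76.2, 25.3 and 43.9 CPM in KO Th17 and Th22 against 26.6, 41.3, 13.6 and 16.5 CPM in WT. KO was above WT within each polarization, by 1.28 (SE 0.19, edgeR adjusted p = 0.0014), a call lost without the cells that had a CD8, gamma-delta or NK marker (1.69, edgeR adjusted p = 0.118).

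Spp1, the cytokine osteopontin, was at 103, 62.8, 13 and 20.3 CPM in the KO libraries of Th17 and Th22 and at 8.88, 13.8, 2.65 and 3.55 CPM in WT (2.60, SE 0.23, edgeR adjusted p = 1.1e-07). Ccl3 was at 56.9, 46.4, 4.01 and 9.64 CPM against 2.54, 1.80, 0.332 and 1.52 CPM (3.82, SE 0.39, edgeR adjusted p = 7.7e-06). For both, each KO library lay above each WT library of its polarization. Ccl3 had 308 UMIs over all Gzmb-high cells, and its WT levels rest on low counts. Xcl1 was higher too (4.13, SE 0.66), from low counts, while Ccl4 (2.36, edgeR adjusted p = 0.133) and Ifng (2.00, edgeR adjusted p = 0.625) did not pass.

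Il17a was lower in KO, at 1.75, 0.766, 0.753 and 1.03 CPM against 10.1, 4.19, 10.3 and 3.55 CPM (-2.70, SE 0.44, edgeR adjusted p = 0.00050), and it did not pass within cluster 1 alone (-1.65, edgeR adjusted p = 0.238). All Gzmb-high cells together held 77 Il17a UMIs, so these levels rest on low counts. Of 15 Th17 genes 6 were lower and none higher. Ifitm1 (-2.30), Ifitm3 (-1.77), the matrix protein Ecm1 (-1.16) and Bcl2l11 (-0.92) were lower as well, the last with its call lost without KO Th22 replicate 2 or WT Th22 replicate 2 (edgeR adjusted p = 0.0733 and 0.15). Nupr1 (1.51) was higher, and of 19 ATF4 response genes 9 were higher and none lower, with a median of 0.47. Tbx21 was at 7.0, 7.28, 3.76 and 3.59 CPM in KO against 2.54, 4.79, 0.663 and 1.02 CPM in WT, and its call (1.42, SE 0.39, edgeR adjusted p = 0.046) was lost in 12 of 16 alternatives. Runx3 (-0.54, SE 0.11) and Tcf7 (-0.51) were lower in KO. No sterol synthesis or ribosome biogenesis gene passed between the genotypes.

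**Figure D5:**
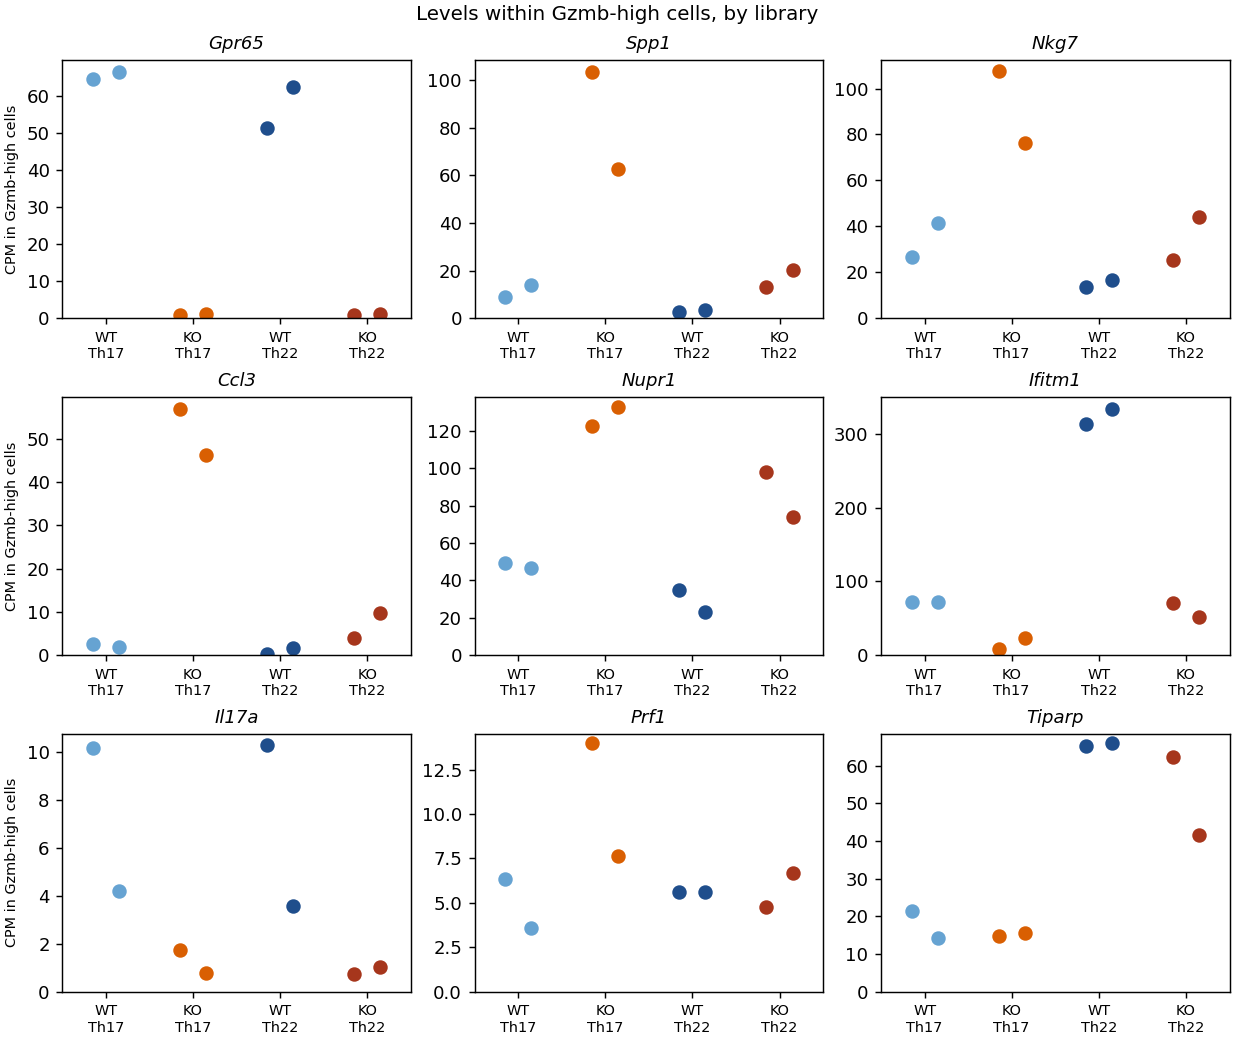
CPM of 9 genes in the Gzmb-high cells of each library; each point is 1 library and each group has 2. Gpr65 is near 1 CPM in the KO libraries, Spp1 and Ccl3 are highest in KO Th17, and Tiparp is higher in Th22 than in Th17.

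Between polarizations, 78 genes (0.82%) were higher and 89 (0.936%) lower in Th22 than in Th17 Gzmb-high cells. With the replicate number as a block within genotype, 306 passed (145 higher, 161 lower), and without WT Th22 replicate 2 the total of 167 was 105. What the libraries of equal number share is not in the labels. The list of aryl hydrocarbon receptor targets, whose ligand FICZ these cultures received, had 4 of 6 members higher and none lower. Tiparp, one of them, was at 62.2, 41.7, 65.3 and 66 CPM in Th22 and at 14.9, 15.7, 21.6 and 14.4 CPM in Th17, with no overlap (1.83, SE 0.17, edgeR adjusted p = 2.6e-08). Ifitm1 (2.00), Ifitm3 (1.68) and Plac8 (1.71) were higher in Th22, and Spp1 (-2.14), Plek (-1.86), Inhba (-1.47), Nkg7 (-1.29) and Ccl3 (-2.60) were lower. Prf1 (-0.38, edgeR adjusted p = 0.663) and Gzmc (0.64, edgeR adjusted p = 0.556) did not pass. These comparisons use the same 8 libraries as those between genotypes.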

How the data were processed

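Single-cell RNA-seq was made from 8 libraries with the 10x Genomics 3' kit, per the labels' protocols. The submitters' processing notes name Cell Ranger 5.0.1, Seurat and mm10, with no role or order. The authors deposited a matrix of UMI counts (16649 genes, 104660 cells) and a table with each cell's library, cluster, UMI and gene counts, mitochondrial percent and cell cycle scores. The percent and the score columns are the authors' deposited values and were used only to describe cells or as an alternative. Clusters were the authors', and no doublets were removed here. The deposited counts were not normalized.

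Cells were matched within each library on UMI count in 40 bins of log10 UMIs between 1500 and 10000, counts without Gzmb were summed per library and side, and the 16 sums were fitted with edgeR 4.0.16 (R 4.3.3, quasi-likelihood test, TMM scaling, filterByExpr, the library as a block, Benjamini-Hochberg adjusted p under 0.05). Comparisons within Gzmb-high cells used 8 sums with polarization and genotype as terms. Phases were called with scanpy 1.11.5. Intervals are exact Clopper-Pearson (95%) and cover counting error only. The fits were tested on simulated data.

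Members and the 43 gene lists were chosen with earlier results of these data known. Genes were named by rule: the 12 largest rises and falls that averaged 20 CPM or more and had 1 direction in all 8 libraries, up to 3 members per list with the smallest adjusted p, the 5 largest rises and falls with at least 20 CPM in each other comparison, and a set of granzyme, cytotoxic and Th17 genes. Other list members given by value alone were chosen after their values were seen, as were Ccl3, Xcl1 and Il24. Members of lists with no UMI table entry were not analysed here. Th17 and Th22 libraries of a genotype with the same replicate number deviated in the same direction (correlation of deviations from the group mean over 4407 genes 0.300 in KO and 0.259 in WT). KO and WT libraries did not (0.0381 in Th17 and -0.193 in Th22). With 2 libraries per group, numbers 1 and 2 give the same correlation, so each rests on 1 contrast. Alternatives covered matching, depth, thresholds, filters, scaling, DESeq2 1.42.0 and single libraries, and those on lineage markers and crossed numbers were added after seeing the data. Some items are not reported here.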

Additional observations from a re-analysis of the deposited data

Results flagged for a closer look

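In 9 of the 120 named genes tested 1 library lay apart from the other 7 in the log2 difference between Gzmb-high and Gzmb-negative cells by Dixon's test at 95%, a test that chance passes for about 1 in 20 groups. KO Th17 replicate 1, one of the shallowest sums with 284 Gzmb-high cells, was that library for Crebrf (-2.927, others -1.259 to -0.667), Rictor (-3.37, others -0.939 to -0.346), Bcl2l11 (-2.858, others -1.106 to -0.545), Klf2 (-1.605, others -0.656 to 0.153) and Tfrc (1.354, others 0.476 to 0.837). In the same library the G2/M share differed by -11.62 points between the sides. WT Th17 replicate 1 was apart for Tcf7 (-1.063, others -0.625 to -0.244) and Il7r (-0.4627, others 0.0107 to 0.330). WT Th17 replicate 2 was apart for Lag3 (0.2701, others -0.685 to -0.248), and KO Th22 replicate 1 for the respiratory subunit Sdhb (0.7086, others 0.0774 to 0.370).

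The effect of the side differed between Th22 and Th17 libraries for Ifitm1 (-1.891, edgeR adjusted p = 1.17e-05) and Ms4a4b (-0.6344, edgeR adjusted p = 0.00156), tested as an interaction.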

How the results depend on the processing

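Of 118 named genes that passed, 45 kept their call under every alternative and 2 changed direction, S1pr1 (0.22) and Il22 (0.10), both with the sides matched on cluster. The 2980 genes of the comparison between the sides were 1951 with DESeq2 (1007 higher, 944 lower), 1420 in KO libraries only, 1755 in WT only, 636 in Th17 only, 1445 matched on cluster, 1746 with cells thinned and 890 with no replicate block, and 2493 to 3021 without 1 library each. The KO against WT difference of effects, 0 genes, gave 2 matched on cluster, 1 with no filter on low counts, 1 matched on phase, 1 with cells thinned, and 0 to 3 without 1 library each (3 without KO Th17 replicate 2). The Th22 against Th17 difference of effects, 2 genes, gave 8 matched on cluster, 0 at 5 or more Gzmb UMIs, 1 with no replicate block, and 1 to 6 without 1 library each (6 without KO Th17 replicate 2, 1 without WT Th17 replicate 1, WT Th17 replicate 2 or WT Th22 replicate 2). Within Gzmb-high cells, the 187 genes between genotypes were 94 at 5 or more UMIs, 86 thinned and 344 with no filter, and 71 (without WT Th22 replicate 2) to 250 without 1 library each. The 167 between polarizations were 67, 70 and 295 in the same order, 306 with the replicate block (genotype and number), and 105 (without WT Th22 replicate 2) to 207. With the number as a block, 210 genes passed between genotypes, and 216 with the numbers crossed. Subsets of libraries and thinning hold fewer samples or counts; for the other settings the cause was not tested. The share differences ranged without 1 library each from 0.0978 to 1.80 points (KO minus WT) and from 1.34 to 2.57 points (Th22 minus Th17), and with the replicate block both had an exact permutation p = 0.125. With 1 library out, genotype and polarization are no longer balanced against each other, so each enters the difference of the other. Depth limits low genes most: most granzymes and T-box factors could not be tested.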
